A study of Mus musculus with 18 samples.

Results

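Matrix metalloproteinases (Mmp genes), Adamts proteases and their tissue inhibitors (Timp genes) were followed through 18 mouse RNA-seq libraries. The members are 38 genes chosen by name, 16 Mmp, 18 Adamts and 4 Timp genes, among the 35727 gene identifiers of the count table. They were chosen with earlier results of these data known. Of the 38 members, 34 passed the filter on low counts and were tested. The other 4, Adamts16, Adamts17, Adamts18 and Adamts19, had group means of at most 0.340 CPM (a count divided by its library total and scaled to 1e+06). The libraries form 6 groups of 3: control fibroblasts, iECs and native endothelial cells (ECs), each from heart and from lung. Day 7 and EGM2, an endothelial growth medium, are given for all 18, fibroblasts included. iEC is the label's own term, commonly used for induced endothelial cells, and the titles of these libraries read SEG, which the labels do not explain. The study asked whether iECs take on the endothelial identity of the organ of origin. Strain, age, sex, the agent given to the iECs and the number of animals are not given in the sources used here. The labels do not say whether the 3 libraries of a group are separate cultures or animals. The p-values therefore rest on the spread between libraries only, and that spread may be technical.

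Matrix metalloproteinases are zinc-dependent endopeptidases, made as inactive precursors, that cut collagens, proteoglycans and other matrix proteins. Some are secreted and some are anchored in the cell membrane, and the 4 Timp proteins bind and block their active sites. Adamts proteases share the zinc-binding catalytic fold and carry thrombospondin repeats that anchor them in the matrix. They include the enzymes that trim procollagens and those that cut aggrecan and versican. Fibroblasts are a main source of these enzymes in connective tissue, while endothelial cells use some of them to open the basement membrane when vessels sprout.

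Library totals ranged from 17747632 to 23775372 estimated counts, and 1 count in the shallowest library equals 0.0563 CPM. Erg, an endothelial transcription factor, averaged 1037 CPM in heart iECs and 1135 in lung iECs, against 49.6 in heart ECs and 91.2 in lung ECs. Summed over 9 endothelial markers, levels were 2194 to 2349.7 CPM in heart iECs and 1584.5 to 1680.0 in heart ECs. They were 2166 to 2483 CPM in lung iECs and 2695 to 2938 in lung ECs. The heart order turns without Erg, with 1211 to 1275.0 CPM of the other 8 markers in heart iECs and 1541 to 1627 in heart ECs, and in lung the ranges are then 1108 to 1221 and 2612 to 2839.6. Pecam1, a defining marker of endothelium, averaged 97.4 CPM in heart iECs and 7.84 in lung iECs, against 298 and 599 in the ECs of the same organs. Cdh5 averaged 562 CPM in heart iECs and 511 in lung iECs, against 448 and 1063 in those ECs. Of the 9 markers, Cdh5, Kdr, Tie1 and Erg had higher means in heart iECs than in heart ECs, and 5 had lower ones. In lung iECs Kdr and Erg had higher means than in lung ECs, and 7 had lower ones. Heart fibroblasts held 211 to 235 CPM of the 9 markers and lung fibroblasts 14.5 to 21.3. Transcripts of 8 fibroblast markers were present in every group: 25993 to 27329.5 CPM in heart fibroblasts, 18085 to 19593 in heart iECs and 19604 to 20348 in heart ECs. In lung they summed to 34647 to 42278 CPM in fibroblasts, 12088 to 16557 in iECs and 5885 to 7597 in ECs. Summed levels of 10 macrophage markers, mostly Lyz2, were 181 to 396 CPM in the heart libraries. They reached 1014 to 1288 CPM in lung fibroblasts, 2630.1 to 4070.1 in lung iECs and 8516 to 10235 in lung ECs. None of these endothelial, fibroblast and macrophage markers was at 0 in any group mean. All 4 smooth muscle markers had higher means in iECs than in fibroblasts and ECs of the same organ. They summed to 1132 to 1324 CPM in heart iECs, 184 to 211 in heart fibroblasts and 271 to 389 in heart ECs, and to 3420.1 to 4259, 807 to 1119 and 1331 to 2237 in the lung groups in that order. Sums of 7 epithelial markers were 258 to 313 CPM in lung ECs and at most 22.2 in the other groups, and Epcam was at 0 in all 3 heart groups. Mesothelial markers, 5 in all, summed to 281 to 407 CPM in heart ECs against 36.7 to 50.6 in heart fibroblasts, and to 3.50 to 21.9 in the iECs of both organs. In bulk RNA, fewer cells of a type and less RNA per cell cannot be told apart. The part of macrophage, smooth muscle, epithelial, mesothelial or fibroblast RNA in the results below was not tested.

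In heart iECs, 8 of the 34 tested members rose and 14 fell against heart fibroblasts, where 26.0% of all 14864 genes tested rose and 24.6% fell. In lung iECs, 8 rose and 14 fell against lung fibroblasts, where 25.9% of all genes rose and 24.7% fell. These 2 comparisons share no library, but they come from 1 fit and share its estimate of the spread. Whether heart and lung cells came from the same animals is not given in the sources used here. The 12 members that fell in both organs, 35.3% of those tested against 15.0% of all genes, were Mmp2, Mmp3, Mmp8, Mmp14, Mmp19, Mmp23, Timp2, Adamts1, Adamts2, Adamts3, Adamts5 and Adamts15. The 5 that rose in both, 14.7% against 15.8% of all genes, were Mmp9, Mmp15, Mmp28, Timp4 and Adamts14. Of those, the lung call of Mmp28 was lost without lung fibroblast replicate 1 or lung iEC replicate 2 (adjusted p up to 0.096), and that of Timp4 is given with its values. Adamts7 fell in heart iECs and rose in lung iECs. The median log2 change over the members was -0.20 in each organ, where the median over all genes was 0.02 in heart and 0.00 in lung. Log2 changes come from the fitted model with scaled library sizes and can differ slightly from the ratio of CPM, and each is followed by its standard error.

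In heart ECs, 10 members were higher and 11 lower than in heart fibroblasts, beside 24.2% and 23.3% of all genes. In lung ECs, 9 were higher and 18 lower than in lung fibroblasts, beside 29.3% and 28.7%, and all 16 tested Mmp genes were among them, 7 higher and 9 lower, where 58.1% of all genes were called in either direction. The call of Mmp14 among the 9 was lost with no filter (adjusted p = 0.0732), with those groups alone (0.132) and when any 1 of 3 libraries was left out, and Mmp24 among the 7 was too sparse for its fold change to be read. The median log2 change over the members was 0.14 in heart ECs and -0.48 in lung ECs, with 0.00 over all genes in each. Heart iECs had 8 members above and 20 below heart ECs, where 24.5% and 24.4% of all genes differed in these directions (48.9% in either). Without heart EC replicate 1, the 8 became 5. Lung iECs had 13 above and 8 below lung ECs, where 22.2% and 23.0% differed (45.2% in either direction), and a fit to those 2 groups alone gave 4 below. Leaving out single libraries of these groups gave 10 to 12 above and 7 to 10 below. For the Adamts genes the split in the main fit was 3 above and 8 below in heart, and 8 above and 0 below in lung. Of the 8 above in lung, Adamts5, Adamts9 and Adamts10 each lost the call under at least 1 alternative (adjusted p up to 0.0981, 0.104 and 0.197). In lung the count below was 0 with edgeR, also at an unadjusted p under 0.05, and 0 with DESeq2. The plot of all changes shows these members by comparison.

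**Figure D1:**
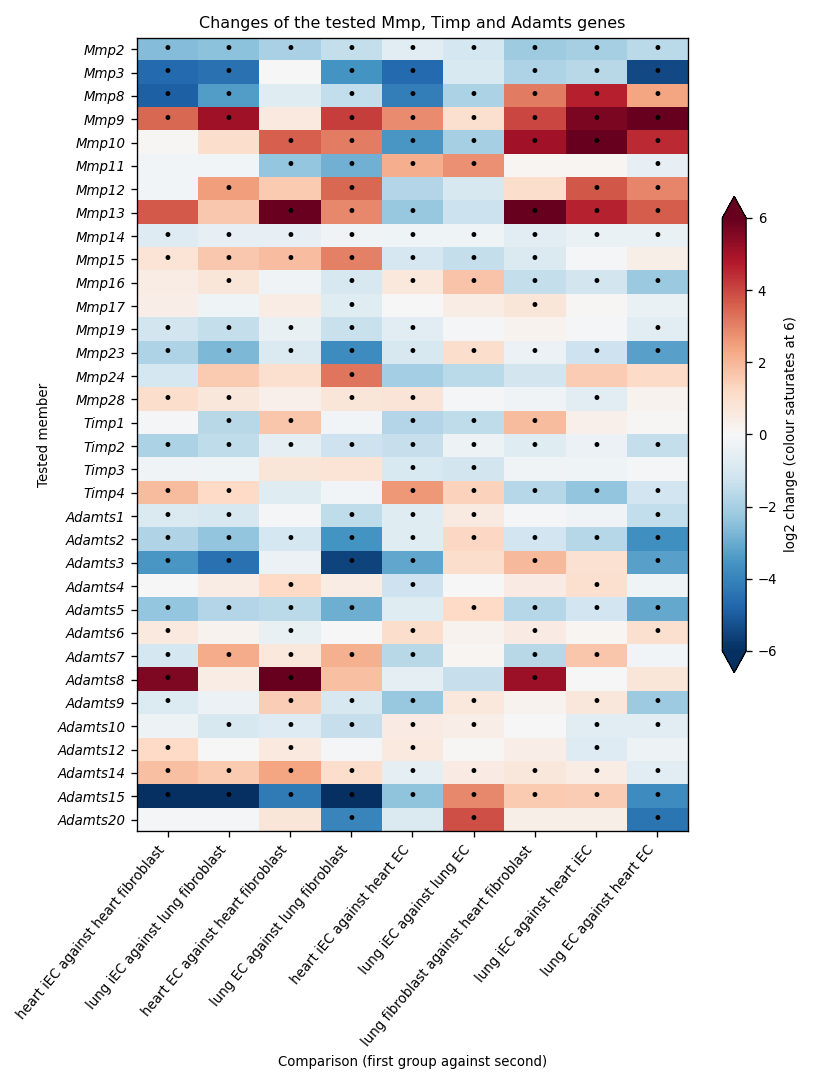
Log2 change of each of the 34 tested members (rows) in the 9 comparisons of a pair of groups (columns), as fitted with edgeR. Red is higher in the first group and blue lower, the colour saturates at 6 in either direction, and a dot marks an adjusted p under 0.05. Mmp3 and Adamts15 are strongly blue in both iEC columns, and Mmp9 is red in both.

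Mmp2, gelatinase A, an enzyme that cuts denatured collagen and basement membrane collagen, was the second most abundant Mmp transcript per kilobase of exon in heart fibroblasts. It lies on chromosome 8 (GRCm38, 92827291 to 92853420, plus strand). Its level in the 3 heart fibroblast libraries was 2575, 2386 and 2570.2 CPM. In heart iECs it was 460.2, 483 and 465 CPM and in heart ECs 668, 744 and 722 CPM. The 3 heart groups did not overlap, with fibroblasts highest and iECs lowest. Lung fibroblasts had 532, 747 and 627 CPM, lung ECs 248.7, 303 and 217, and lung iECs 130.05, 114 and 143. The same order held in lung, at lower levels throughout. The change in iECs was -2.60 ± 0.137 on the log2 scale in heart (adjusted p = 2.57e-11) and -2.46 ± 0.137 in lung (adjusted p = 5.78e-11). These 2 changes differed by 0.14 ± 0.184, which did not pass the test (adjusted p = 0.631). The sums of 8 fibroblast markers were lower in iECs of both organs too. Of these markers, 7 had lower means in heart iECs than in heart fibroblasts, and Col1a1 had a higher one. In lung iECs all 8 had lower means than in lung fibroblasts. The part of fibroblast RNA was not tested.

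Mmp14, the membrane-bound protease that activates Mmp2 at the cell surface with the help of Timp2, changed much less. Its level was 893, 914 and 918 CPM in heart fibroblasts, 603, 631 and 591 in heart iECs and 682, 729 and 679 in heart ECs. Lung fibroblasts had 615, 637 and 632 CPM, lung iECs 508, 461 and 539, and lung ECs 575, 629 and 535. Fibroblasts of each organ lay above the iECs without overlap. The fall in iECs was -0.76 ± 0.0818 in heart (adjusted p = 3.19e-07) and -0.48 ± 0.0816 in lung (adjusted p = 7.23e-05). The fall in lung ECs, -0.23 ± 0.0814 at an adjusted p of 0.0217, was lost without lung EC replicate 3, at an adjusted p of 0.127. Per kilobase, Mmp14 stood at 0.205 times Mmp2 in heart fibroblasts (0.196 to 0.217 over the 3 libraries) and at 0.733 times in heart iECs (0.719 to 0.741). In lung the ratio was 0.569 in fibroblasts (0.482 to 0.654) and 2.21 in iECs (2.13 to 2.28). For ECs it was 0.555 in heart and 1.29 in lung. In lung iECs and lung ECs, Mmp14 led the family per kilobase.

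Timp2, which inhibits Mmp2 and also takes part in its activation by Mmp14, was the most abundant Timp transcript in heart fibroblasts. It measured 2825, 2731 and 2798 CPM there, 833, 828 and 847 in heart iECs and 2085, 2137 and 2070.0 in heart ECs. Lung fibroblasts had 1843, 1839 and 1888 CPM, lung iECs 783, 756 and 614, and lung ECs 807, 741 and 1054. In both organs the fibroblasts were highest, and in lung the iEC and EC libraries overlapped. Timp2 fell in iECs by 1.92 ± 0.0956 in heart and 1.54 ± 0.0946 in lung on the log2 scale (adjusted p = 9.5e-12 and 2.05e-10). In heart ECs the change was -0.52 ± 0.0926 and in lung ECs -1.22 ± 0.0938 (adjusted p = 0.000156 and 2.95e-09). Per kilobase, Timp2 was 4.69 times Mmp14 in heart fibroblasts and 2.10 times in heart iECs, and 4.52 and 2.20 times in the lung pair. It was 4.61 times Mmp14 in heart ECs and 2.32 times in lung ECs (1.80 to 3.01 over the 3 libraries), so lung ECs were close to lung iECs.

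Mmp3, Mmp8, Mmp10, Mmp12 and Mmp13 lie together in 296 kb of chromosome 9 (GRCm38, 7272514 to 7568485), all on the plus strand, in the order Mmp13, Mmp12, Mmp3, Mmp10, Mmp8. Of the 6 protein-coding genes in that span the remaining one is Mmp1b. The 150 bases before the RefSeq start of each (GRCm38.p6) are printed because neighbouring genes of 1 cluster behaved differently. Capitals mark the letters TGANTCA, the core of the AP-1 binding site, searched on both strands and equal to their own reverse complement, with no overlap with another marked match.
Mmp13, chr9:7272364-7272513, plus strand: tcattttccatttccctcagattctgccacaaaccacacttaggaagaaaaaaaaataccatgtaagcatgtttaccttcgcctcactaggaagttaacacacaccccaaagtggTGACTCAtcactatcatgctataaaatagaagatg
Mmp12, second start, chr9:7347224-7347373, plus strand: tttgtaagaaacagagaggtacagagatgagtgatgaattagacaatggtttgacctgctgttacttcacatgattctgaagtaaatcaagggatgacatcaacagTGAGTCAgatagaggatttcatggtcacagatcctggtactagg
Mmp3, chr9:7445672-7445821, plus strand: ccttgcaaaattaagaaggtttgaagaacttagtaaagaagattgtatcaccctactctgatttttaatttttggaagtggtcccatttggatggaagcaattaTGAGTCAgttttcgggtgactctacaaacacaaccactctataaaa
Mmp10, chr9:7502192-7502341, plus strand: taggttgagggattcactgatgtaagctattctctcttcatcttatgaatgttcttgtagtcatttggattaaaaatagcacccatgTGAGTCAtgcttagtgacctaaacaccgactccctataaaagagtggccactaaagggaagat
Mmp8, chr9:7558279-7558428, plus strand: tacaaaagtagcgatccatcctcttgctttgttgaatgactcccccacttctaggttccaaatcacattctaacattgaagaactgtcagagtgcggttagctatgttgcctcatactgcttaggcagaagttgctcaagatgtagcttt
The match begins 35 bases before the start in Mmp13 (TGACTCA), 44 in Mmp12, 46 in Mmp3 and 63 in Mmp10 (TGAGTCA in the last 3). No match stands in the window of Mmp8 or in that of the first Mmp12 start. The RefSeq promoter table, with windows from 250 bases before to 50 after a start, held 24 of the 38 members in 26 windows. TGANTCA was in 4 of those 26 windows (15.4%), all of them in this cluster, and in 7.81% of 32851 windows of all genes. AGGAAG, letters found in ETS-type sites, was in 34.6% of member windows and 35.4% of all, again counting both strands. A match of letters is a description of the sequence only.

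Mmp3, stromelysin 1, cuts proteoglycans and activates other Mmp precursors. Per kilobase it was the most abundant Mmp transcript in both fibroblast groups and in heart ECs. Heart fibroblasts had 1818, 1846 and 1889 CPM and heart ECs 2111, 1981 and 1813, so that these groups overlapped. Heart iECs had 71.1, 89.5 and 85.9 CPM, far below both. In lung, fibroblasts had 555, 592 and 533 CPM, iECs 23.2, 19.5 and 41.3, and ECs 47.4, 80.5 and 24.1. Here iECs and ECs overlapped and both stood below fibroblasts. The change in iECs was -4.68 ± 0.4004 in heart and -4.48 ± 0.401 in lung (adjusted p = 3.31e-07 and 5.77e-07), and that in lung ECs was -3.56 ± 0.382 (adjusted p = 2.6e-06). The difference between heart ECs and heart fibroblasts was -0.02 ± 0.342 (adjusted p = 0.964). Of the 8 fibroblast markers, 6 had lower means in heart ECs than in heart fibroblasts, and Col1a1 and Dcn had higher ones. Between organs, Mmp3 was lower in lung ECs than in heart ECs by a log2 change of -5.40 ± 0.415 (adjusted p = 1.31e-07).

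Mmp8, a collagenase best known from neutrophils, was highest in lung fibroblasts. They had 125, 175 and 154 CPM, lung ECs 50.8, 87.4 and 35.5 and lung iECs 18.5, 13.2 and 17.7. The 3 lung groups did not overlap. Heart fibroblasts had 15.5, 14.8 and 17.8 CPM, heart ECs 11.2, 10.6 and 9.01, and heart iECs 0.406, 0.506 and 0.873. The heart groups kept the same order at lower levels, again without overlap, although the difference between heart ECs and heart fibroblasts did not pass the test (adjusted p = 0.0518). The log2 change in iECs was -4.92 ± 0.429 in heart and -3.37 ± 0.294 in lung (adjusted p = 2.42e-07 and 2.78e-07). Lung fibroblasts exceeded heart fibroblasts by 3.10 ± 0.291 (adjusted p = 6.58e-07). Of 8 neutrophil markers, S100a9, Ly6g and Retnlg were listed at 0 in every group, while S100a8 averaged 20.4 CPM in lung ECs. Whether the rows at 0 could receive counts was not tested, so nothing on neutrophils is read from them. The sum of the list was 1.11 to 3.83 CPM in lung fibroblasts and 16.0 to 42.6 in lung ECs.

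Mmp10, Mmp12 and Mmp13 followed another course, with the highest means in lung ECs. Mmp10, stromelysin 2, had 0.278, 0.470 and 0.377 CPM in heart fibroblasts, 0.316, 0.464 and 0.567 in heart iECs and 6.32, 3.53 and 4.75 in heart ECs. In lung it had 17.3, 10.8 and 12.7 CPM in fibroblasts, 23.4, 16.0 and 54.2 in iECs and 121, 192 and 47.4 in ECs. Heart ECs stood apart from the other heart groups, and the lung groups overlapped between iECs and their neighbours. The change from fibroblasts to iECs did not pass the test in either organ, 0.08 ± 1.43 in heart and 1.04 ± 0.510 in lung (adjusted p = 0.972 and 0.109). In ECs Mmp10 was higher by 3.58 ± 0.947 in heart and 3.05 ± 0.524 in lung (adjusted p = 0.00746 and 0.00023). Lung iECs were below lung ECs by a log2 change of -2.01 ± 0.495 (adjusted p = 0.00492), or -2.69 without lung iEC replicate 3, and a fit to those 2 groups alone lost the call (adjusted p = 0.102).

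Mmp13, collagenase 3, the main rodent collagenase of bone and healing tissue, was close to absent in heart fibroblasts, with 0.139, 0.282 and 0 CPM. Heart iECs had 2.21, 2.19 and 2.23 CPM and heart ECs 14.3, 6.68 and 8.90. Lung fibroblasts had 17.8, 17.6 and 16.9 CPM, lung iECs 42.0, 35.9 and 100.5, and lung ECs 122, 263 and 25.2. Each heart group lay apart from the next, and lung ECs spread over a range that took in the lung iECs. The difference between organs was present in every cell type, from 6.70 ± 1.31 in fibroblasts to 4.63 ± 0.814 in iECs and 3.65 ± 0.712 in ECs on the log2 scale (adjusted p = 0.000891, 0.000571 and 0.000926). Without heart fibroblast replicate 2 the first became 7.63, without lung iEC replicate 3 the second became 4.01, and without lung EC replicate 2 the third became 2.73. Against fibroblasts, ECs were higher by 5.94 ± 1.38 in heart and 2.89 ± 0.679 in lung (adjusted p = 0.00346 and 0.00266). Those values became 6.86 without heart fibroblast replicate 2 and 1.96 without lung EC replicate 2. The iEC changes, 3.68 ± 1.74 and 1.61 ± 0.661, did not pass the test (adjusted p = 0.0976 and 0.0593).

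Mmp12, macrophage elastase, had 18.5, 38.9 and 7.09 CPM in lung ECs and 7.85, 6.96 and 20.3 in lung iECs, which overlapped. Lung fibroblasts had 1.52, 2.07 and 1.95 CPM, below every library of the other lung groups. The 9 heart libraries lay between 0.470 and 4.01 CPM. Lung iECs exceeded lung fibroblasts by 2.49 ± 0.629 (adjusted p = 0.00436), or 1.82 without lung iEC replicate 3. Lung ECs exceeded them by 3.44 ± 0.632 (adjusted p = 0.000322), or 2.65 without lung EC replicate 2.

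The libraries that set these spreads also differed in macrophage markers. Lung iEC replicate 3 had the highest macrophage marker sum of its group, 4070.1 CPM against 3575 and 2630.1, and the highest Mmp9, Mmp10, Mmp12 and Mmp13. Lung EC replicate 2 had the highest sum of its group, 10235 CPM, and the highest Mmp9, Mmp10, Mmp12 and Mmp13. Replicate 3 of that group had the lowest sum, 8516 CPM, and the lowest of each. Lung EC replicate 3 also held the most fibroblast marker transcripts of its group, 7597 CPM, and lung iEC replicate 3 the fewest of its group, 12088 CPM. Mmp2, Mmp3, Mmp14, Timp1, Adamts4 and Adamts7 took the same order of libraries as the macrophage sums in lung iECs and lung ECs. Mmp8 did in lung ECs only, and the members not named here did not take it in both groups. Mmp2, Mmp3, Mmp8, Mmp14 and Timp1 had their highest lung mean in fibroblasts, the lung group with the lowest macrophage sums. Adamts4 and Adamts7 had theirs in lung iECs. Levels of Mmp9, Mmp10, Mmp12 and Mmp13 are plotted for the lung libraries, and the part of macrophage RNA in them was not tested.

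**Figure D2:**
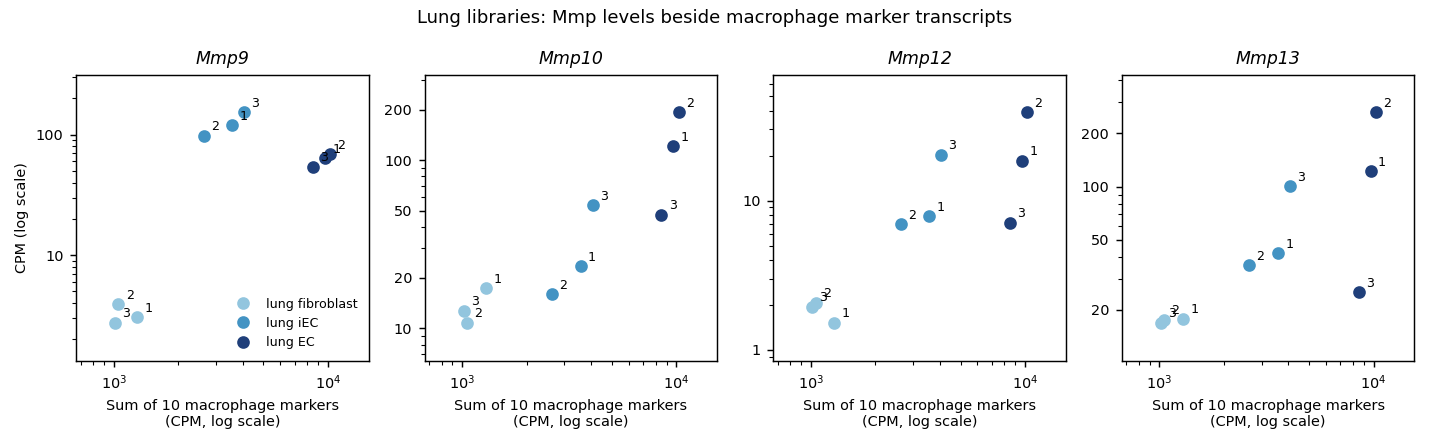
Levels of Mmp9, Mmp10, Mmp12 and Mmp13 (vertical axis, CPM, log scale) against the summed level of 10 macrophage markers (horizontal axis, CPM, log scale) in the 9 lung libraries, each point 1 library with its replicate number. Lung ECs lie farthest right at 8516 to 10235 CPM, and Mmp9 is highest in the lung iECs.

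Mmp9, gelatinase B, made by macrophages, neutrophils and sprouting endothelium among other cells, had the largest rise of the 34 tested members in lung iECs. It lies on chromosome 2 (164940780 to 164955850, plus strand). Lung fibroblasts had 3.04, 3.90 and 2.74 CPM, lung iECs 119, 98.0 and 153 and lung ECs 63.8, 68.6 and 54.1. The 3 lung groups did not overlap and iECs were highest. Heart fibroblasts had 0.278, 0.0470 and 0.215 CPM, heart iECs 2.21, 1.01 and 3.62 and heart ECs 0.382, 0.267 and 0.216. Heart iECs lay above the other heart groups, which overlapped. The rise in iECs was 3.44 ± 0.618 in heart and 5.09 ± 0.300 in lung on the log2 scale (adjusted p = 0.000258 and 1.79e-09). The difference of 1.65 ± 0.988 between them did not pass the test (adjusted p = 0.255). In iECs against ECs of the same organ, Mmp9 was higher by 2.85 ± 0.553 in heart and 0.94 ± 0.235 in lung (adjusted p = 0.000561 and 0.00436). Lung ECs exceeded heart ECs by 7.55 ± 0.411 (adjusted p = 7.64e-10), the largest log2 change of the 34 members between the ECs of the organs.

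Mmp11, stromelysin 3, a stromal member that leaves the cell already activated by furin, separated ECs from the other groups. Heart fibroblasts had 65.4, 60.1 and 70.8 CPM, heart iECs 67.7, 68.9 and 65.1, and heart ECs 13.3, 15.4 and 14.1. Lung fibroblasts had 67.8, 82.4 and 81.0 CPM, lung iECs 84.2, 79.4 and 70.3, and lung ECs 9.27, 10.1 and 14.6. Fibroblasts and iECs overlapped in both organs, and all 6 EC libraries were below them. The iEC changes were -0.15 ± 0.113 in each organ (adjusted p = 0.3 in heart and 0.29 in lung). The EC changes were -2.31 ± 0.122 in heart and -2.89 ± 0.125 in lung (adjusted p = 6.92e-11 and 1.03e-12). Exons of Chchd10 on the opposite strand share 5.58% of Mmp11 exon length, and whether the counting used strand is not given in the sources used here.

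**Figure D3:**
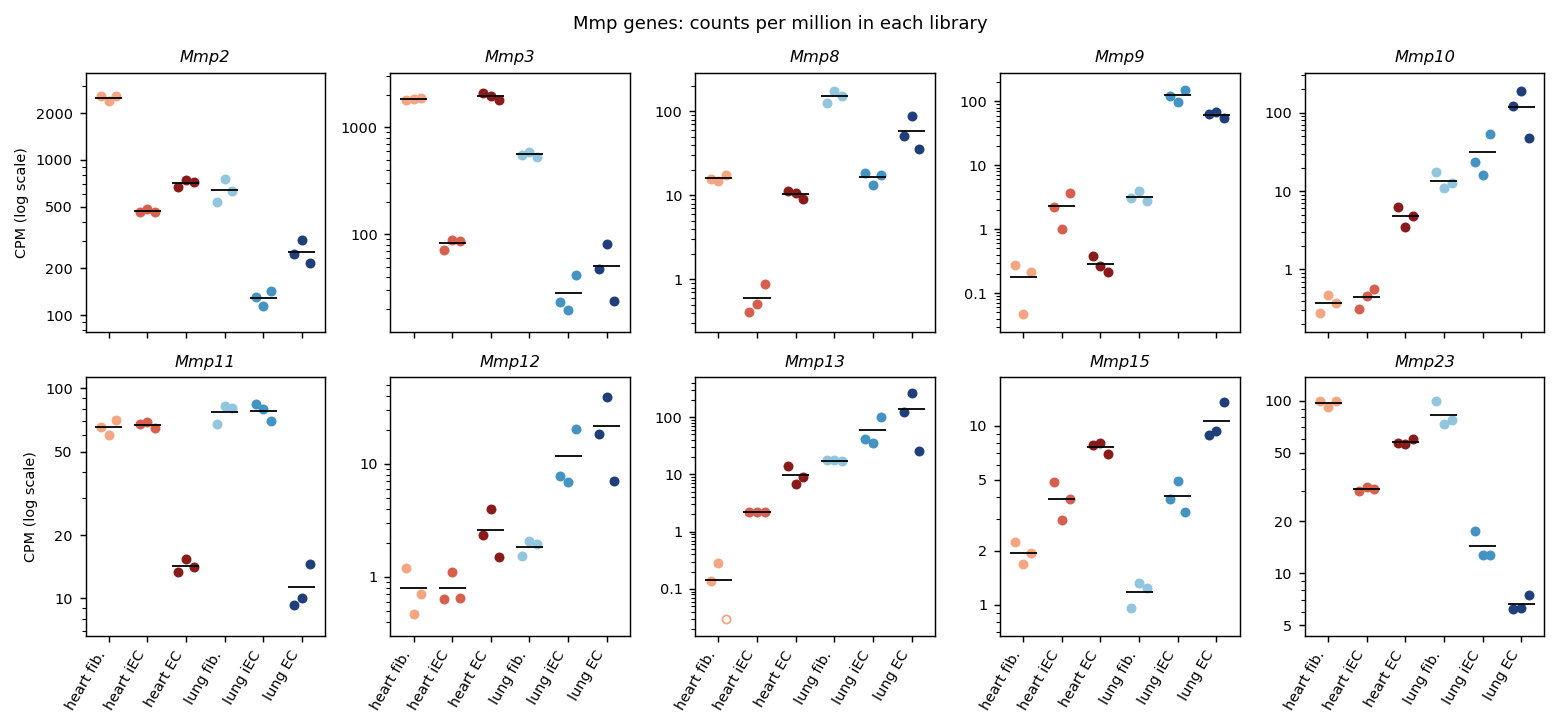
Level of 10 Mmp genes (CPM, log scale) in each of the 18 libraries, by group, with each point 1 library and the bar the mean of 3. The open circle in the Mmp13 panel is a library with no count, placed at an arbitrary height, and Mmp11 shows the 6 EC libraries between 9.27 and 15.4 CPM, below all others.

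Mmp23, an unusual membrane-tethered member, fell in iECs and ECs of both organs. Heart fibroblasts had 99.0, 91.2 and 98.9 CPM, heart iECs 30.0, 31.6 and 30.9 and heart ECs 57.2, 56.4 and 59.8. Lung fibroblasts had 99.0, 73.3 and 76.9 CPM, lung iECs 17.6, 12.8 and 12.8 and lung ECs 6.25, 6.27 and 7.46. Neither organ had overlapping groups, but the order of iECs and ECs was opposite in heart and lung. In iECs the log2 changes were -1.83 ± 0.114 in heart and -2.69 ± 0.121 in lung (adjusted p = 2.29e-10 and 2.84e-12). They differed by -0.86 ± 0.161 (adjusted p = 0.000591). Against ECs, iECs were lower by 0.98 ± 0.113 in heart and higher by 1.07 ± 0.129 in lung on the log2 scale (adjusted p = 1.05e-06 and 2.13e-06).

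Mmp15, a membrane-type member related to Mmp14, rose in all 4 comparisons with fibroblasts at low levels. Heart fibroblasts had 2.23, 1.69 and 1.94 CPM, heart iECs 4.87, 2.95 and 3.88 and heart ECs 7.81, 7.96 and 6.96. Lung fibroblasts had 0.958, 1.32 and 1.24 CPM, lung iECs 3.87, 4.91 and 3.297 and lung ECs 8.86, 9.38 and 13.6. In each organ iECs lay between fibroblasts and ECs without overlap. Against fibroblasts, iECs changed by 0.81 ± 0.221 and 1.61 ± 0.236 in heart and lung, and the EC changes 1.84 ± 0.217 and 3.04 ± 0.230 (adjusted p = 0.00511, 1.59e-05, 1.78e-06 and 2.36e-09).

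Of the remaining Mmp genes, Mmp19 fell from 90.2 ± 4.35 to 48.1 ± 0.594 CPM in heart iECs and from 116 ± 0.594 to 48.4 ± 2.35 in lung iECs (mean ± SD, n = 3). Its log2 changes were -1.09 ± 0.105 and -1.42 ± 0.105 (adjusted p = 7.43e-08 and 2.61e-09), and 22.3% of its exon length is shared with Tmem198b on the opposite strand. Mmp28 rose from 4.20 ± 0.513 to 9.93 ± 0.925 CPM in heart iECs (log2 change 1.06 ± 0.211, adjusted p = 0.000386). The membrane-type genes Mmp16, Mmp17 and Mmp24 had group means between 0.0783 and 9.97 CPM. Mmp16 rose in lung iECs by 0.75 ± 0.205 (adjusted p = 0.00529), from 2.20, 2.40 and 3.32 to 5.13, 5.39 and 4.45 CPM. Mmp17 passed the test in neither iEC comparison, with 0.40 ± 0.215 in heart and -0.26 ± 0.208 in lung (adjusted p = 0.131 and 0.319). Mmp24, with 116 counts in all 18 libraries together, was too sparse for its fold changes to be read.

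Summed over the family, Mmp genes took 0.556% ± 0.0126 of all counts in heart fibroblasts (mean ± SD, n = 3) and 0.134% ± 0.00389 in heart iECs. The share was 0.357% ± 0.0145 in heart ECs. In lung it was 0.230% ± 0.0158 in fibroblasts, 0.107% ± 0.0142 in iECs and 0.138% ± 0.0361 in ECs. Mmp3 and Mmp2 held most of it in heart fibroblasts and heart ECs. Per kilobase these genes made up 50.7% and 36.8% of the family in heart fibroblasts and 73.5% and 14.2% in heart ECs. In heart iECs Mmp2 led with 40.3%, followed by Mmp14 with 29.5%. In lung iECs Mmp14 made up 30.8%, Mmp2 14.0% and Mmp9 12.7%.

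Adamts2, Adamts3 and Adamts14 cut the amino-terminal propeptide from procollagens, a step in collagen fibril assembly. Adamts2 (chromosome 11, 50602084 to 50807573, plus strand) was the most abundant Adamts transcript per kilobase in fibroblasts of both organs. Heart fibroblasts had 1589.9, 1557 and 1637 CPM, heart iECs 509, 549 and 522 and heart ECs 788, 854 and 829.8. Lung fibroblasts had 725, 855 and 799 CPM, lung iECs 212, 178 and 129.5 and lung ECs 70.2, 67.8 and 75.3. No groups within an organ overlapped, and iECs were below ECs in heart and above them in lung. Log2 changes in iECs were -1.78 ± 0.118 in heart and -2.36 ± 0.120 in lung (adjusted p = 4.79e-10 and 1.54e-11). The lung change exceeded the heart change in size by a log2 difference of -0.58 ± 0.162 (adjusted p = 0.0132).

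Adamts3, the related gene that also acts on the lymphatic growth factor Vegfc, had lower counts and larger changes. Lung fibroblasts had 7.21, 17.9 and 11.99 CPM, lung iECs 0.785, 0.477 and 0.576 and lung ECs 0.256, 0.252 and 0.324. In heart it was 3.25, 3.38 and 2.05 CPM in fibroblasts, 2.08, 2.67 and 2.59 in ECs and 0.316, 0.127 and 0.436 in iECs. Heart fibroblasts and heart ECs overlapped, and heart iECs lay below both. The iEC changes were -3.48 ± 0.401 in heart and -4.49 ± 0.361 in lung (adjusted p = 8.23e-07 and 7.72e-09). The difference between heart ECs and heart fibroblasts, -0.37 ± 0.315, did not pass the test (adjusted p = 0.359).

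Adamts14 moved the opposite way to both. Heart fibroblasts had 9.33, 8.93 and 10.1 CPM, heart iECs 41.5, 33.5 and 36.8 and heart ECs 57.9, 48.4 and 49.96. Lung fibroblasts had 19.4, 15.6 and 14.8 CPM, lung iECs 52.0, 51.1 and 59.8 and lung ECs 35.6, 37.3 and 38.4. Fibroblasts were lowest in each organ without overlap. The iEC changes were 1.79 ± 0.118 and 1.55 ± 0.113 and the EC changes 2.35 ± 0.119 and 1.04 ± 0.113 in heart and lung (adjusted p = 4.52e-10, 2.15e-09, 3.79e-11 and 2.88e-07). Even so, Adamts2 remained the more abundant of the pair in every group, at 56.4 against 7.17 CPM per kilobase in heart iECs and 18.6 against 10.4 in lung iECs. In lung ECs the levels were 7.61 and 7.14 CPM per kilobase.

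Adamts1, Adamts4, Adamts5, Adamts8, Adamts9, Adamts15 and Adamts20 belong to the branch that cuts aggrecan, versican and related proteoglycans. Adamts15 had the most negative log2 change of the 34 tested members in both iEC comparisons. Heart fibroblasts had 65.8, 58.1 and 71.0 CPM, heart iECs 0.316, 0.717 and 1.13 and heart ECs 1.74, 3.95 and 5.56. Lung fibroblasts had 158, 264 and 215 CPM, lung iECs 2.20, 2.77 and 1.83 and lung ECs 0.205, 0.210 and 0.463. The fibroblast libraries stood far above all others, and no groups within an organ overlapped. The iEC changes were -6.66 ± 0.387 in heart and -6.70 ± 0.3499 in lung (adjusted p = 2.68e-09 and 9.01e-10). The difference between them was -0.05 ± 0.691 (adjusted p = 0.979). In ECs the changes were -4.26 ± 0.318 in heart and -9.59 ± 0.442 in lung (adjusted p = 7.93e-08 and 1.56e-10).

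Adamts5, a main aggrecanase of cartilage, was second in the family in heart fibroblasts. They had 1327, 1267 and 1277 CPM, heart iECs 272, 318 and 289.7 and heart ECs 376, 513 and 497. Lung fibroblasts had 333, 491 and 459 CPM, lung iECs 147, 168 and 109.6 and lung ECs 41.7, 37.2 and 106. Groups within an organ did not overlap, although lung EC replicate 3 came close to the lung iECs. The iEC changes were -2.32 ± 0.307 in heart and -1.76 ± 0.302 in lung (adjusted p = 2.1e-05 and 0.000234). Lung ECs were below lung fibroblasts by a log2 change of -2.93 ± 0.316 (adjusted p = 2.28e-06), or -3.53 without lung EC replicate 3. Lung iECs were above lung ECs by 1.18 ± 0.300 (adjusted p = 0.00568). That became 1.77 without lung EC replicate 3, while a fit to the 2 groups alone lost the call (adjusted p = 0.0981).

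Adamts1, whose gene lies beside Adamts5 on chromosome 16, fell by less. It went from 395 ± 13.9 to 248 ± 6.58 CPM in heart iECs and from 412 ± 40.6 to 236 ± 14.9 in lung iECs (mean ± SD, n = 3). Its log2 changes were -0.85 ± 0.0895 and -0.96 ± 0.0897 (adjusted p = 2.37e-07 and 5.59e-08), and Adamts1 led the family per kilobase in lung iECs and lung ECs. Heart ECs, at 393 ± 20.9 CPM, were not called different from heart fibroblasts (log2 change -0.12 ± 0.0888, adjusted p = 0.269).

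Adamts9, a secreted protease that also acts in vascular and heart development, was highest in heart ECs. They had 186, 221 and 166 CPM, heart fibroblasts 61.7, 65.8 and 65.5 and heart iECs 45.9, 35.1 and 43.2. Lung fibroblasts had 57.3, 105 and 86.2 CPM, lung iECs 65.6, 73.6 and 78.7 and lung ECs 47.2, 55.7 and 34.6. The heart groups did not overlap, whereas lung fibroblasts spread across the lung iECs. Heart iECs were below heart ECs by a log2 change of -2.28 ± 0.215 (adjusted p = 4.3e-07). Heart ECs were above heart fibroblasts by 1.46 ± 0.209, and lung ECs below lung fibroblasts by a change of -0.96 ± 0.209 (adjusted p = 4.14e-05 and 0.00102). The gene shares 9.18% of its exon length with A730049H05Rik on the opposite strand.

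Adamts4, an aggrecanase induced by inflammatory signals, was higher in heart ECs (37.7 ± 1.92 CPM) than in heart fibroblasts (15.2 ± 0.534), with a log2 change of 1.1995 ± 0.1997 (adjusted p = 0.000124). Its iEC changes, -0.04 ± 0.202 in heart and 0.46 ± 0.195 in lung, did not pass the test (adjusted p = 0.881 and 0.0629). Adamts8 had no count in the 3 heart fibroblast libraries, and 3 counts over that group would give 0.0489 CPM. Against this floor the mean of heart iECs, 0.287 CPM from 20 counts, was 5.88-fold higher. Heart ECs had 0.416 CPM from 26 counts, 8.51-fold higher. These are not lower bounds, since single libraries went down to 0.0901 CPM in heart iECs and 0.0540 in heart ECs. With 126 counts in all 18 libraries together, Adamts8 was too sparse for its fold changes to be read. Adamts20 was at 0.987 ± 0.191 CPM in heart ECs and 0.102, 0.0421 and 0 in lung ECs.

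Adamts7 and Adamts12 form a separate branch known to cut Comp, a cartilage matrix protein. Adamts7 was the only member called in opposite directions in the iECs of the 2 organs. Heart fibroblasts had 67.2, 64.5 and 69.2 CPM, heart iECs 34.5, 36.9 and 37.5 and heart ECs 115, 112 and 107. Lung fibroblasts had 20.8, 28.7 and 19.9 CPM, lung iECs 116, 109.8 and 144 and lung ECs 119, 127 and 80.6. Heart iECs were the lowest heart group and lung iECs overlapped lung ECs, far above lung fibroblasts. The changes were -1.07 ± 0.168 in heart iECs and 2.25 ± 0.175 in lung iECs (adjusted p = 5.56e-05 and 1.73e-08). The difference between them, 3.32 ± 0.242, passed the test (adjusted p = 6.98e-08). In ECs Adamts7 was higher than in fibroblasts of both organs, by 0.62 ± 0.165 in heart and 2.12 ± 0.174 in lung (adjusted p = 0.0058 and 2.33e-08). Exons of Tbc1d2b on the opposite strand share 1.94% of its exon length.

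Adamts12 had 91.6, 96.7 and 90.0 CPM in heart fibroblasts and 242, 231 and 246 in heart iECs, a log2 change of 1.19 ± 0.186 (adjusted p = 6.22e-05). In lung it had 91.7, 152 and 154 CPM in fibroblasts and 167, 177 and 108 in iECs, which overlapped, with a change of 0.01 ± 0.184 (adjusted p = 0.96). The lung minus heart difference of these changes was -1.17 ± 0.260 (adjusted p = 0.00349). Adamts6 and Adamts10, which act on the fibrillin microfibril system, changed by 0.59 ± 0.163 and -0.30 ± 0.160 in heart iECs and by 0.21 ± 0.159 and -0.97 ± 0.162 in lung iECs. Of these 4 values the first and the last passed the test (adjusted p = 0.00558 and 8.81e-05).

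**Figure D4:**
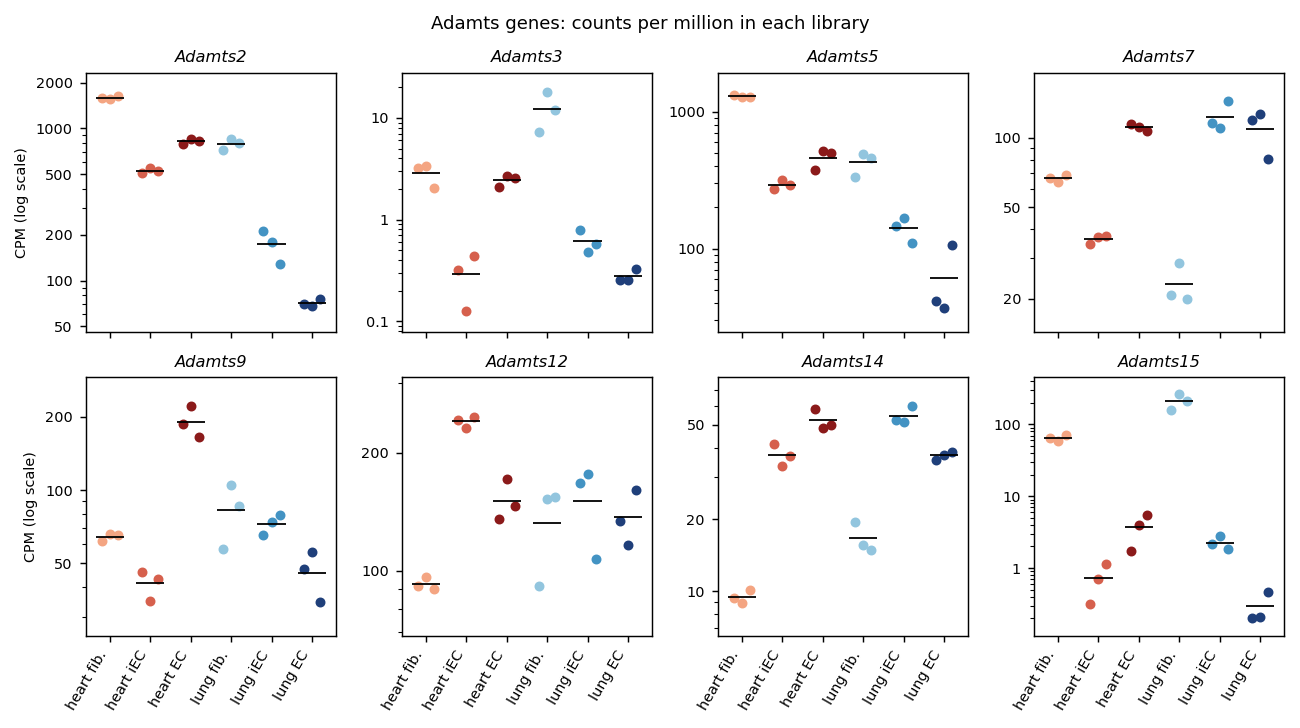
Level of 8 Adamts genes (CPM, log scale) in each of the 18 libraries, by group, with each point 1 library and the bar the mean of 3. Adamts15 is high in the 6 fibroblast libraries only (58.1 CPM and above, against at most 5.56 elsewhere), and Adamts7 shows heart iECs below and lung iECs above their fibroblasts.

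The Adamts family as a whole took 0.366% ± 0.00714 of counts in heart fibroblasts, 0.151% ± 0.00291 in heart iECs and 0.227% ± 0.0114 in heart ECs (mean ± SD, n = 3). In lung it took 0.221% ± 0.0312, 0.105% ± 0.00935 and 0.0696% ± 0.00265. Heart iECs thus held less than heart ECs, and lung iECs more than lung ECs, beyond the spread between libraries.

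Timp1, a secreted inhibitor that binds Mmp9 among others, did not follow Timp2. Heart fibroblasts had 156, 173 and 172 CPM, heart iECs 186, 179 and 176 and heart ECs 689, 470.2 and 553. Lung fibroblasts had 834, 616 and 612 CPM, lung iECs 233, 209 and 281 and lung ECs 668, 877 and 454. Heart ECs, lung fibroblasts and lung ECs were high and the other 3 groups low. The iEC changes were -0.08 ± 0.216 in heart (adjusted p = 0.794) and -1.67 ± 0.221 in lung (adjusted p = 1.38e-05), and they differed by -1.60 ± 0.307 (adjusted p = 0.0013). Heart ECs exceeded heart fibroblasts by 1.66 ± 0.221 and lung fibroblasts exceeded heart fibroblasts by 1.90 ± 0.223 (adjusted p = 2.05e-05 and 4.38e-06). The 3 high groups also had the highest sums of 5 mesothelial markers, 281 to 407 CPM in heart ECs, 204 to 213 in lung fibroblasts and 189 to 305 in lung ECs. Msln made up most of the sum in each, with means of 179, 122 and 169 CPM. Of the 5 markers, Msln and Krt19 had higher means in lung ECs than in lung fibroblasts, and 3 had lower ones. The other groups had 3.50 to 50.6 CPM. Single libraries did not keep this order. Heart EC replicate 2 had the highest mesothelial sum of its group, 407 CPM, and the lowest Timp1, 470.2 CPM. Lung EC replicate 3 likewise had 305 and 454 CPM, whereas lung fibroblast replicate 3 had the lowest of both, 204 and 612 CPM. The part of mesothelial RNA in the Timp1 level was not tested. Per kilobase, Timp1 was 870.5 times Mmp9 in lung fibroblasts and 7.88 times in lung iECs (7.33 to 8.51 over the 3 libraries), ranging from 629.8 to 1093 in the former. The ratio in lung ECs was 42.1 (33.5 to 51.0).

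Timp3, the inhibitor that binds matrix and also blocks Adamts4 and Adamts5, had 351, 339 and 325 CPM in heart fibroblasts, 323, 316 and 354 in heart iECs and 569, 663 and 566 in heart ECs. Lung fibroblasts had 268, 327 and 369 CPM, lung iECs 305, 434 and 154 and lung ECs 504, 359.5 and 1016. Fibroblasts and iECs overlapped in both organs. The iEC changes, -0.22 ± 0.340 in heart and -0.28 ± 0.340 in lung, did not pass the test (adjusted p = 0.627 and 0.523). The lower level in iECs than ECs, -0.93 ± 0.342 in heart and -1.11 ± 0.343 in lung (adjusted p = 0.0383 and 0.0182), was not stable. Leaving out a single library of either heart group gave adjusted p of 0.0597 to 0.0967, and leaving out lung iEC replicate 3 or lung EC replicate 3 gave 0.0511 and 0.105. Syn3 on the opposite strand shares 21.3% of the exon length of Timp3 but had 226 counts over all libraries, against 158124 for Timp3.

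Timp4, the inhibitor otherwise known from heart muscle, was sparse. Heart iECs had 7.48, 6.49 and 7.33 CPM, above the 2.09, 1.36 and 1.61 of heart fibroblasts and the 0.594, 1.28 and 1.46 of heart ECs. The rise in heart iECs was 1.88 ± 0.358 (adjusted p = 0.000238). The 9 lung libraries had 0.282 to 2.24 CPM. In lung iECs the change was 1.1998 ± 0.424 (adjusted p = 0.0248), and without lung iEC replicate 2 or lung fibroblast replicate 2 or 3 it was not called (adjusted p up to 0.173).

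**Figure D5:**
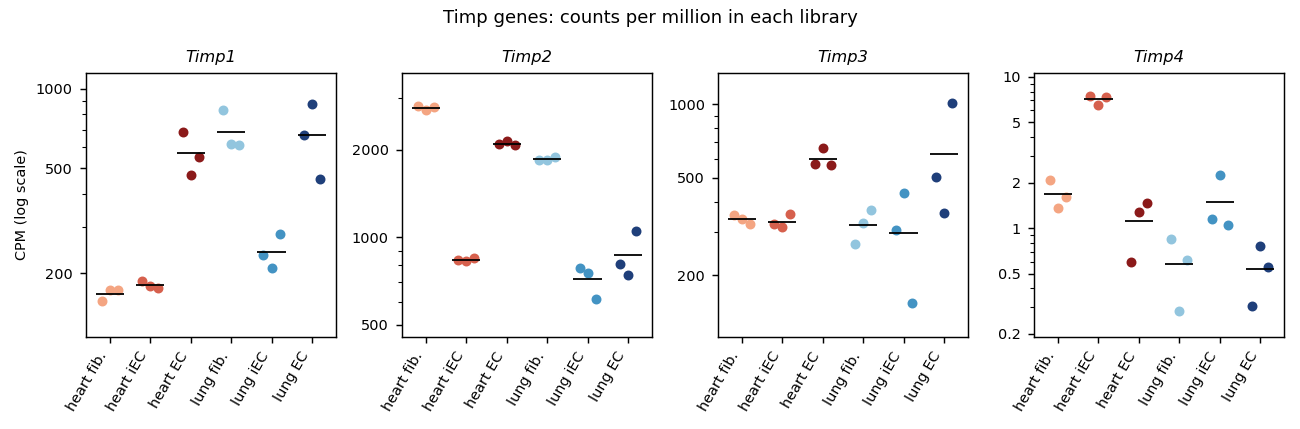
Level of the 4 Timp genes (CPM, log scale) in each of the 18 libraries, by group, with each point 1 library and the bar the mean of 3. Timp2 is lower in the 6 iEC libraries (614 to 847 CPM) than in all 6 fibroblast libraries (1839 CPM and above), and Timp1 is low in heart fibroblasts and in the iECs of both organs.

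The Timp genes together took 0.329% ± 0.00455 of counts in heart fibroblasts, 0.135% ± 0.00277 in heart iECs and 0.327% ± 0.00764 in heart ECs (mean ± SD, n = 3). In lung the shares were 0.287% ± 0.00823, 0.126% ± 0.0184 and 0.216% ± 0.0315. All 3 families therefore took a smaller share in iECs than in fibroblasts of the same organ. The shares weigh each member by its counts, so abundant members set them. Of 16 Mmp, 14 Adamts and 4 Timp genes tested, 3, 4 and 1 rose and 6, 7 and 1 fell in heart iECs. In lung iECs 5, 2 and 1 rose and 6, 6 and 2 fell. Beside these stand 26.0% of all genes that rose and 24.6% that fell in heart, and 25.9% and 24.7% in lung.

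Between organs, 11 members were higher and 11 lower in lung than in heart fibroblasts, beside 24.6% and 23.9% of all genes (48.5% in either direction). In iECs 10 were higher and 12 lower, beside 18.9% and 18.9%. In ECs 6 were higher and 18 lower, beside 24.2% and 23.7% (47.9% in either direction). Mmp8, Mmp9, Mmp10 and Mmp13 were higher in lung in all 3 cell types, and Mmp2, Mmp3, Mmp14, Mmp16, Mmp23, Timp2, Timp4, Adamts2 and Adamts5 were lower in all 3. The Mmp23 call in fibroblasts was lost without lung fibroblast replicate 2 or 3 (adjusted p = 0.0636 and 0.0575), and the Timp4 call in ECs was lost without heart EC replicate 2 or 3 or lung EC replicate 1 or 3 (adjusted p up to 0.152). The lung to heart change differed between iECs and ECs for 20 members, 17 with a higher value in iECs and 3 with a lower one, beside 13.8% and 12.2% of all genes. The 3 became 1 without heart iEC replicate 3, heart EC replicate 1 or 2, lung iEC replicate 1 or lung EC replicate 2. Among the 14 tested Adamts genes that split was 10 and 1. The median difference over the Adamts genes was 1.54, and over all genes -0.01.

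The lung and heart responses of fibroblast to iEC differed for 7 members, 2 with a higher and 5 with a lower lung value, beside 12.6% and 12.6% of all genes. Those with the higher value were Adamts7 and Timp2, and those with the lower value were Timp1, Adamts12, Mmp23, Adamts10 and Adamts2. The call for Timp2, at 0.39 ± 0.131 (adjusted p = 0.0376), and that for Adamts10, at -0.67 ± 0.227 (adjusted p = 0.0386), were lost when single libraries of any of the 4 groups were left out (adjusted p up to 0.109 and 0.091). Without lung iEC replicate 1, any single heart fibroblast library, heart iEC replicate 2 or 3, or lung fibroblast replicate 3, the count with a higher lung value was 1.

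Genes that activate, bind or share substrates with these proteases were read from 9 lists of 79 genes in all, of which 66 were tested. Their counts stand beside 26.0% of all genes that rose and 24.6% that fell in heart iECs (50.7% in either direction), and 25.9% and 24.7% in lung iECs (50.6%), and nothing particular to a list is read from its count. Of 9 tested plasminogen activation genes, 3 rose and 4 fell in heart iECs and 4 rose and 3 fell in lung iECs. Of 4 proprotein convertases, which cut the precursors of membrane-type Mmp and Adamts enzymes, 2 rose and 1 fell in heart iECs and 1 rose and 1 fell in lung iECs. Furin rose in both, by 0.62 ± 0.0810 and 0.58 ± 0.0811 (adjusted p = 3.95e-06 and 8.5e-06).

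Of 7 other regulators of matrix proteolysis, 0 rose and 6 fell in heart iECs and 1 rose and 6 fell in lung iECs, beside 26.0% and 24.6% of all genes in heart and 25.9% and 24.7% in lung. At an unadjusted p under 0.05 and with DESeq2 the count of higher ones in heart stayed at 0. Reck, a membrane inhibitor of several Mmp proteins, went from 109 ± 4.23 to 74.8 ± 5.84 CPM in heart iECs and from 72.1 ± 9.62 to 27.6 ± 4.32 in lung iECs. Its log2 changes were -0.72 ± 0.129 and -1.55 ± 0.134 (adjusted p = 0.000131 and 2.46e-08). Pcolce, an enhancer of the procollagen C-proteinase, had log2 changes of -1.996 ± 0.170 and -2.79 ± 0.176 (adjusted p = 4.06e-08 and 1e-09). Of 6 Adamts-like genes, which encode related matrix proteins without a protease domain, 2 rose and 4 fell in each organ, where each direction held 24.6% to 26.0% of all genes. Adamtsl2 went from 269 ± 25.9 to 19.7 ± 2.70 CPM in heart iECs and from 14.3 ± 1.31 to 0.189 ± 0.0850 in lung iECs, log2 changes of -3.96 ± 0.232 and -6.37 ± 0.422 (adjusted p = 1.32e-09 and 5.9e-09).

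The same shares of all genes, 26.0% higher and 24.6% lower in heart iECs and 25.9% and 24.7% in lung iECs, stand beside the counts of the other lists. Of 5 tested proteoglycan substrates and cofactors, 3 rose and 2 fell in heart iECs and 3 rose and 1 fell in lung iECs. Vcan, the versican gene and a substrate of the Adamts1 branch, rose from 136 ± 19.2 to 1062 ± 82.1 CPM in heart iECs (log2 change 2.78 ± 0.155, adjusted p = 9.96e-11). Its lung change was 0.29 ± 0.145 (adjusted p = 0.114). Thbs2, thrombospondin 2, which promotes clearance of Mmp2, fell in heart iECs by 2.18 ± 0.109 and rose in lung iECs by 2.10 ± 0.108 on the log2 scale (adjusted p = 9.36e-12 and 1.79e-11). Of 11 Adam proteases, membrane relatives of the Adamts family, 3 rose and 5 fell in heart iECs and 5 rose and 2 fell in lung iECs. Of 11 tested other matrix proteases, 4 rose and 5 fell in heart and 2 rose and 7 fell in lung. Bmp1, the procollagen C-proteinase, fell by 0.62 ± 0.0713 and 0.38 ± 0.0712 (adjusted p = 8.21e-07 and 0.000201). Of 10 cathepsins and cystatins, 2 rose and 7 fell in heart and 3 rose and 2 fell in lung. Only 3 of 8 further Mmp and Adamts genes could be tested, and Mmp27 fell in heart iECs from 4.26 ± 0.440 to 0.766 ± 0.537 CPM (log2 change -2.65 ± 0.395, adjusted p = 1.78e-05).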

How the data were processed

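mRNA libraries of 6 groups of 3 were analysed, heart and lung fibroblasts, iECs and ECs at day 7. The authors deposited 1 table of estimated counts per gene, and Salmon, DESeq2 and mm10 are listed, without versions, in the submitters' processing notes. All values are whole numbers, so the deposited estimated counts were taken as already rounded. How transcripts were summed to genes and whether strand was used are not given in the sources used here. Of 35727 identifiers, 305 had no symbol in GENCODE M21 and held 0.0532% of counts.

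Genes passing filterByExpr over the 6 groups (14864) were fitted with edgeR 4.0.16 (R 4.3.3), with TMM scaling and a robust quasi-likelihood fit of all 18 libraries (12 residual degrees of freedom, common biological coefficient of variation 0.135). There were 9 pairwise contrasts and 2 differences of contrasts, with Benjamini-Hochberg adjustment over all genes tested and calls at an adjusted p under 0.05. Standard errors were taken as |log2 change| / sqrt(F) of the quasi-likelihood test. CPM is a count divided by the library total and scaled to 1e+06, without TMM, and levels of different genes are compared per kilobase of merged exon. Depth limits low values: 3 counts over a group is the floor used for a group at 0, which covers counting error only. The fitting script was tested on simulated counts with 200 changed genes.

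Values in every library are given for tested members with a group mean of at least 10 CPM and a called absolute log2 change of at least 2 in at least 1 pairwise contrast, and for others where a comparison needed them. Up to 4 genes of highest mean CPM per list could be named from 9 lists of related genes, and 1 of those genes is not reported here. Members, lists and rule were chosen with earlier results of these data known. Alternatives were RLE scaling, no filter, a filter of 5 CPM in 3 libraries, DESeq2 1.42.0, the groups of a comparison alone, the replicate number as a block, and each library left out. Applying them to the lists of related genes was chosen after seeing the data. Promoter sequences are from RefSeq on GRCm38.p6. Protein sequences were not used here.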

Additional observations from a re-analysis of the deposited data

Results flagged for a closer look

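For 27 values, the test of a difference between organs passed an adjusted p under 0.05 (edgeR, 3 libraries per group). Each is a lung minus heart difference of log2 changes. The change from fibroblast to iEC differed for Adamts7 by 3.32, Timp2 by 0.39, Timp1 by -1.60, Adamts12 by -1.17, Mmp23 by -0.86, Adamts10 by -0.67 and Adamts2 by -0.58.

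The iEC minus EC difference was higher in lung than in heart for 10 Adamts genes. The differences were 5.28 for Adamts15, 4.72 for Adamts20, 4.18 for Adamts3, 2.89 for Adamts9, 1.95 for Adamts2, 1.90 for Adamts5, 1.81 for Adamts7, 1.28 for Adamts1, 1.23 for Adamts4 and 1.06 for Adamts14. The first 3 rest on few counts, so their size is uncertain. Over the 3 lung EC libraries Adamts15 had 19 counts, Adamts20 3 and Adamts3 18. Over the 3 heart iEC libraries they had 50, 39 and 20. Among Mmp genes they were 3.73 for Mmp3, 2.29 for Mmp8, 2.04 for Mmp23, 1.10 for Mmp16, 0.57 for Mmp11 and 0.57 for Mmp19, and Timp2 had 1.08. The lower values were -1.91 for Mmp9, -0.84 for Mmp28 and -0.82 for Adamts6. Without lung EC replicate 1 the value of Adamts20 became 5.62, and without lung EC replicate 3 that of Adamts5 became 2.49. The calls of Mmp9, Mmp11 and Mmp28 were each lost under at least 1 alternative.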

How the results depend on the processing

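Of 209 pairwise calls of members, 183 were kept under every alternative run, and 22 of 27 called differences between organs were. No named value changed direction past the threshold. The count of members higher in heart iECs than heart ECs, 8, was 5 to 8 when single libraries were left out. The count lower in lung iECs than lung ECs, 8, was 4 with the groups of the comparison alone. The count with a higher lung value for the fibroblast to iEC change, 2, was 1 with the replicate block, 5 with the groups alone, 5 with DESeq2 and 1 to 3 with single libraries left out. The count with a lower iEC against EC organ difference, 3, was 1 with no filter, 1 with the groups alone and 1 to 3 with single libraries left out. The causes were not tested. No pairing of libraries by replicate number was visible. Correlations of same-numbered deviations ran from -0.398 to 0.117 over 27 pairs, and in 0 of 9 comparisons did every library correlate best with its own number. With so few libraries per group, these correlations cannot show that same-numbered libraries share no culture, animal or batch. The replicate block otherwise kept 367 results on their side of the threshold and lost 7. Depth limits Adamts8, Adamts20, Mmp24 and the 4 untested members most, since 1 count is 0.0563 CPM in the shallowest library.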
